A study of Mus musculus with 8 samples.

Results

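The genes described here are the Wnt pathway genes of sorted mouse skin stem cells. They were chosen by symbol, as a list of 50 genes that covers ligands, their processing and export, secreted inhibitors, receptors, Dishevelled proteins, the β-catenin destruction complex and TCF/LEF factors. Of the 50 genes, 48 had a row among the 23861 genes of the table for hair follicle stem cells (HFSCs) and 45 among the 16231 genes of the table for epidermal stem cells (EpdSCs). Wnt10b and Wnt16 were analysed only in EpdSCs, and Lef1, Notum, Wif1, Fzd4 and Dkk2 only in HFSCs.

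The study asked how loss of Msx2, a homeobox transcription factor, changes stem cells of the hair follicle around the shedding of the old hair. Bulk RNA-seq of total RNA was made from telogen dorsal skin, sorted as HFSCs (CD34-positive, CD49f-positive, Sca-1-negative) or EpdSCs (CD34-negative, CD49f-positive, Sca-1-positive). The 8 libraries, 2 for each genotype and cell type, came from WT C57BL/6J mice and from mice homozygous for a germline Msx2 allele with a neo cassette inserted upstream of exon 2, of a genetic background that the labels do not name. The WT HFSC mice were 2 months old, while the Msx2-KO HFSC mice and the EpdSC mice of both genotypes were 6 months old. In HFSCs, age and genotype therefore cannot be told apart. The deposited column names of the libraries also fall into separate series by genotype in both cell types. What these series mark is not given, and it cannot be told apart from genotype. The labels number the replicates and do not say that they came from separate animals, so p-values measure the spread between these samples, which may be technical.

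HFSC values were estimated counts, given here as CPM (counts scaled to a common sum for each library) with TMM scaling, which sets most genes level between libraries. Total counts were 4324510 and 3132970 for WT and 11016700 and 6895610 for the KO-labelled libraries. The 2 mitochondrial ribosomal RNA genes took 8.94 and 36.3% of them in WT and 49.4 and 53.2% in the KO-labelled libraries, and genes above 0.5 counts numbered 22488 and 19667 in WT and 11414 and 14268 in the others. The KO-labelled libraries thus had more counts and fewer detected genes than the WT libraries. A single count was worth 0.133 and 0.323 CPM in WT and 0.109 and 0.212 CPM in the KO-labelled libraries. A count of 0 allows a level of up to 3 counts, which is 0.327 CPM in Msx2-KO replicate 1 and 0.970 CPM in WT replicate 2. These floors cover counting error only.

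EpdSC values were normalized by the authors before deposit and are given as deposited. They summed to 16478500 and 14682000 for WT and 24694400 and 14216500 for the KO-labelled libraries. Mitochondrial ribosomal RNA took 23.5 and 16.4% of the sum in WT and 0.0730 and 6.18% in the KO-labelled libraries. Genes above 0.5 numbered 15870 and 15938 in WT and 12730 and 15167 in the others. Of the 45 Wnt pathway genes, 44 and 45 were above 0.5 in WT and 44 and 45 in the others. Across genes, which are not independent replicates, log2 levels of the WT pair correlated at 0.927 in HFSCs and 0.952 in EpdSCs. The pair labelled Msx2-KO correlated at 0.577 in HFSCs and 0.844 in EpdSCs, so in both cell types the replicates labelled Msx2-KO were less alike than the WT replicates. In HFSCs that pair also lay below every pair of a WT and a KO-labelled library (0.601 to 0.632). In EpdSCs it lay above all such pairs (0.613 to 0.742).

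Msx2 itself was read as the check of the labels. Its estimated counts in HFSCs were 53 and 7 in WT and 40 and 18 in the KO-labelled libraries, and its values in EpdSCs were 58.5 and 85.4 in WT and 150.3 and 22.2 in the KO-labelled libraries. The groups overlapped in both cell types and no fall of Msx2 was shown or excluded, with a log2 fold change of -0.20 (SE 1.23, edgeR adjusted p = 0.975) in HFSCs and -0.27 (SE 1.10, limma adjusted p = 0.865) in EpdSCs. Counts per gene do not separate the exons on either side of the inserted cassette. The label is therefore kept in the name of each library, KO-labelled or WT, and each direction between genotypes rests on it. Of the sort markers, Cd34 was read in each HFSC library, at 491 and 436 CPM in WT and 177 and 144 CPM in the KO-labelled libraries. Ly6a, which encodes Sca-1, was read in each EpdSC library, at 472 and 544 in WT and 826 and 3493 in the KO-labelled libraries. Itga6, which encodes CD49f, stood at 166 and 189 CPM in WT HFSCs and 122 and 81.7 CPM with the KO label. In EpdSCs Itga6 went the other way, at 8229 and 9959 in WT and 68397 and 32855 with the KO label.

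Wnt ligands are secreted, lipid-modified proteins that bind Frizzled receptors together with the co-receptors Lrp5 and Lrp6. Binding recruits Dishevelled and stops a complex of Axin, Apc and the kinase Gsk3b from marking β-catenin for destruction, so that β-catenin collects and acts with TCF/LEF factors on target genes, while other receptors such as Ror and Ryk carry signals that do not need β-catenin. In skin the pathway is known for the formation of hair follicles, for waking follicle stem cells at the start of hair growth and for the upkeep of the basal epidermis.

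In HFSCs no Wnt pathway gene passed the test between genotypes. Of the 48 genes with a row, 41 passed the filter on low counts and 0 of the 41 were called at an adjusted p under 0.05 and over 2-fold, where 0% of all 14422 genes tested were called higher and 0% lower. The common dispersion was 0.823, a wide spread between replicates, so the count of 0 does not show that levels were equal. The smallest adjusted p of a member was 0.143 (edgeR). Before adjustment, 1 member had a p under 0.05 with a higher level in the KO-labelled libraries, Sfrp1, against 5.3% of all genes. In the lower direction there were 6, namely Fzd3, Wnt5b, Ror2, Tcf4, Dkk3 and Fzd5, against 12.8% of all genes. Both KO-labelled libraries lay above both WT libraries in 7 members (17.1%, against 17.5% of all genes) and below both in 16 (39.0%, against 33.5%). The median log2 fold change of the 41 members was -0.17, and that of all genes tested -0.14. With Wnt5b and Ror2 set to their folds against a floor of 3 counts, the members' median was also -0.17. With single libraries left out the members' median ran from -0.35 to 0.04 and that of all genes from -0.72 to 0.09. Without Msx2-KO replicate 2 they were -0.26 and -0.72. DESeq2 called 1 member, Fzd3, among 323 genes called higher and 351 lower (2.44% of members and 4.67% of all genes), and limma-trend called 3, Fzd3, Ror2 and Wnt5b, among 158 higher and 1249 lower (7.32% and 9.76%). DESeq2 gave Ror2 and Wnt5b no adjusted p.

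Scaling and the 2 KO-labelled libraries moved these counts. With library totals in place of TMM the median of all genes shifted by -0.86, and 35 of the 41 members had a negative log2 fold change, in place of 24. Taken against the median of all genes tested, 22 of 41 members lay below it with TMM and 20 with library totals. Of the 23 members whose groups did not overlap, 17 kept their order with library totals, while Sfrp1, Lrp5, Ror1, Dvl3 and Tcf7l1 overlapped and Lgr4 moved to the other side. Wnt4, Wnt10a, Porcn, Fzd1, Znrf3, Axin2, Gsk3b and Tcf3, which overlapped with TMM, stood below WT with library totals. That left 1 member above WT (all genes 5.98%) and 25 below (61.0%, all genes 49.8%). Without Msx2-KO replicate 1 edgeR called 12 members and without Msx2-KO replicate 2 it called 19, while without either WT library it called 0. In the same fits 2467 and 2711 of all genes were called higher and 3500 and 6561 lower, so that 30% and 46.3% of the members stood beside 36.6% and 59.1% of all genes. The lone library was assumed to vary like the other group.

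**Figure D1:**
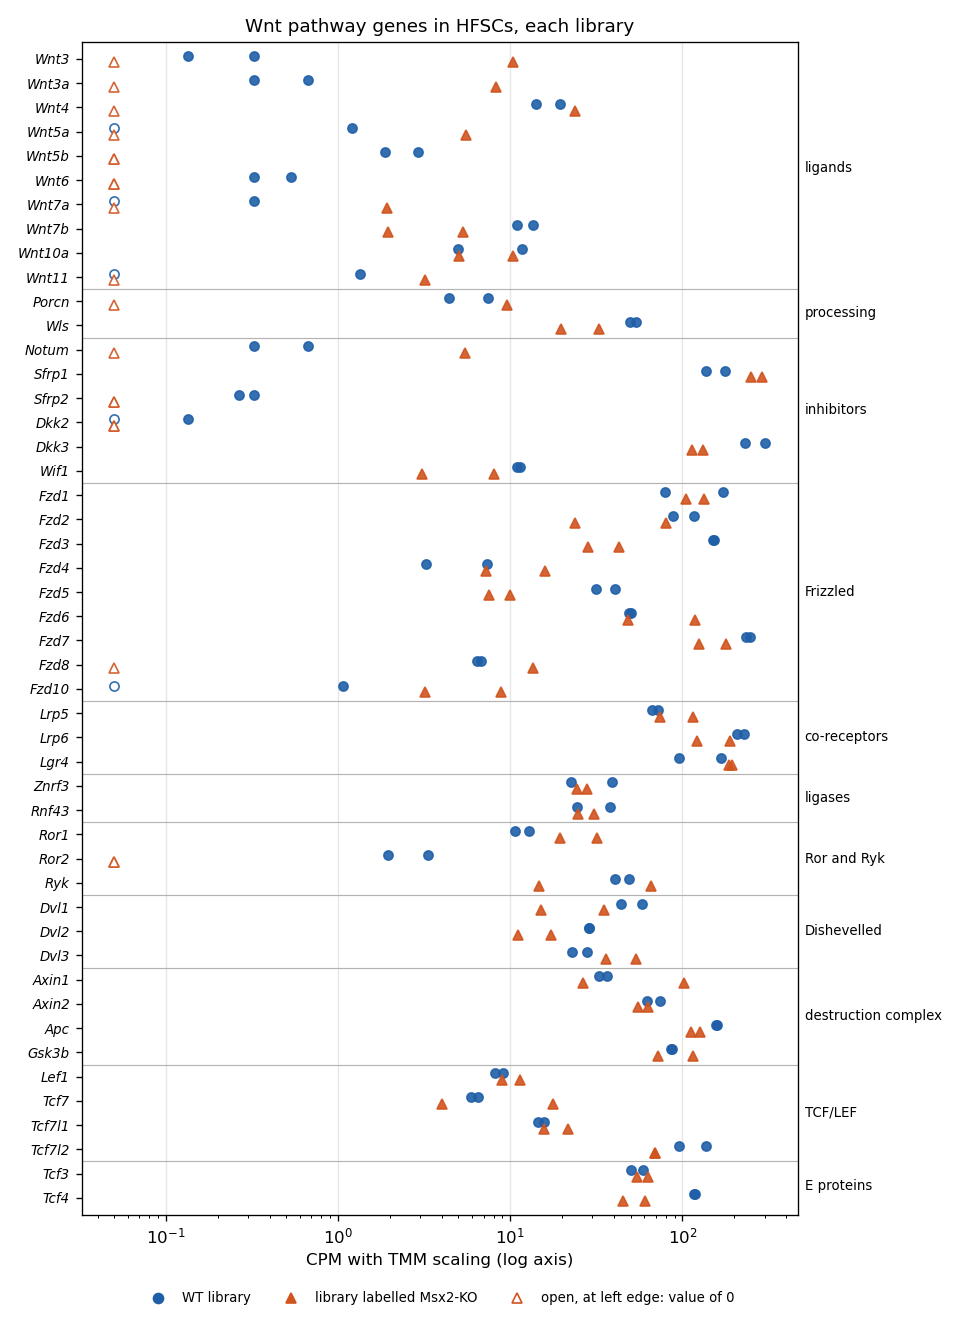
Level of each of the 48 Wnt pathway genes with a row for HFSCs, in CPM with TMM scaling on a log axis, with 1 point for each library and open points at the left edge for a value of 0. Dkk3, Sfrp1, Fzd7, Lrp6 and Apc lay above 100 CPM in every library, while 8 of the 10 ligands were at 0 in 1 or both KO-labelled libraries, as were 57.0% of all genes.

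In EpdSCs a single Wnt pathway gene passed the test, the co-receptor gene Lrp5, which was lower in the KO-labelled libraries. All 45 genes with a row were tested, since no filter was applied. The 1 member called lower (2.22% of 45) stood against 7.78% of all 16231 genes, and the 0 members called higher stood against 1.57%. Before adjustment, 9 members had a p under 0.05 with a higher value in the KO-labelled libraries and 9 with a lower value, each 20% of the members, where all genes gave 12.2% and 23.1%. Both KO-labelled libraries lay above both WT libraries in 22 members (48.9%, against 27.8% of all genes) and below both in 15 (33.3%, against 44.5%). On the log2(value + 1) scale, which understates changes of low genes, the members had a median log2 fold change of 0.85 and all genes one of -0.64. These medians were 0.19 and -0.40 without Msx2-KO replicate 1, and 0.55 and -0.63 without WT replicate 1. With values rescaled to equal totals the median of all genes shifted by -0.24, and with mitochondrial and ribosomal RNA genes also left out by -0.50. The members' median was 0.59 and 0.32 under these rescalings. Of the 37 members whose groups did not overlap, 33 kept their order with equal totals and 29 with those genes left out. With equal totals 19 members stood above WT (all genes 24.7%) and 17 below (all genes 46.2%), and with those genes left out 14 stood above (all genes 21.7%) and 18 below (all genes 51.2%), so which side held more members depended on the scaling. Members with a log2 fold change above the median of all genes numbered 29 of 45 under each of the 3 scalings. A scaling moves all genes by nearly the same amount and can hardly change this count. It was 27 without Msx2-KO replicate 1, and 30 without Msx2-KO replicate 2 or without WT replicate 2. Without Msx2-KO replicate 1 limma called 17 members and without Msx2-KO replicate 2 it called 28, which is 37.8% and 62.2% of the members beside 37.6% and 63.9% of all genes. Without either WT library it called 0 genes.

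**Figure D2:**
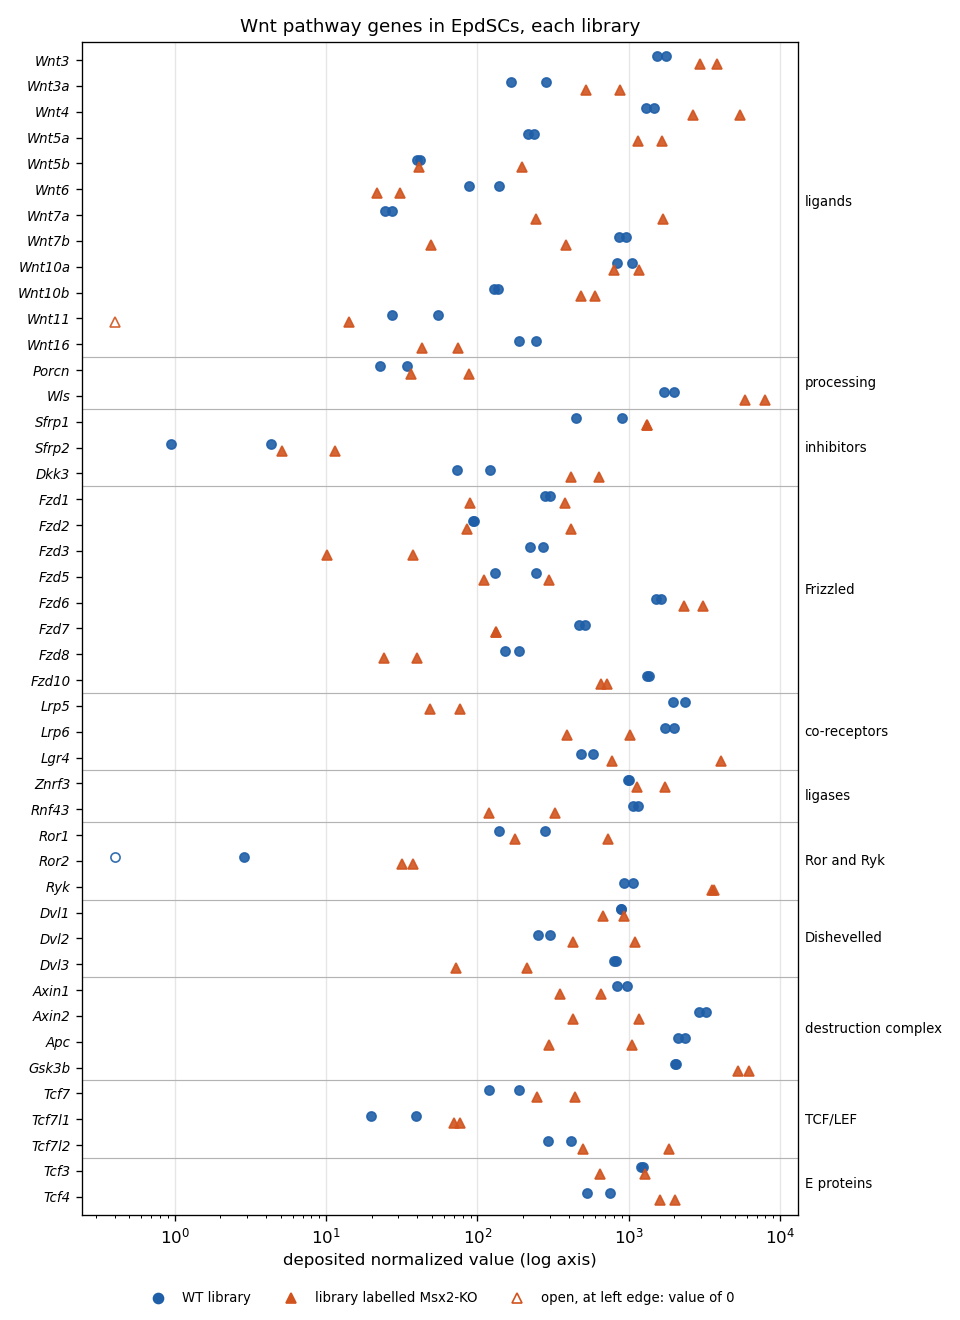
Deposited normalized value of each of the 45 Wnt pathway genes with a row for EpdSCs, on a log axis, with 1 point for each library and open points at the left edge for a value of 0. The WT points of most genes lay close together, and the KO-labelled libraries lay apart from them in either direction, farthest for Lrp5, Wnt7a and Ror2.

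Some ligands stood at different levels in the WT libraries of the 2 cell types. No test was made across the tables, which were deposited in different units, and the WT HFSC mice were younger than the WT EpdSC mice, so age and cell type cannot be told apart here. Levels were ordered within each library per kilobase of exon over the 15003 genes that both tables share, and the mean percentile of the WT libraries is given. Wnt3 stood at percentile 3.84 in HFSCs and 94.4 in EpdSCs. Wnt10a stood at 55.1 and 91.5, and Wnt4 at 62.8 and 90.0. Wnt5b stood at 22.4 and 22.0, Wnt7a at 2.998 and 13.0 and Wnt11 at 4.77 and 15.1, low in both. In WT EpdSCs the ligands with the largest value per kilobase were thus Wnt3 (537), Wnt10a (382), Wnt4 (330.4) and Wnt7b (186). In WT HFSCs the ligand order began with Wnt4 (3.99 CPM per kilobase), Wnt10a (3.36) and Wnt7b (2.50), and all 3 lay far under the receptors Fzd7 (53.1) and Fzd1 (29.8).

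Among the ligands in HFSCs, 6 of the 10 with a row passed the filter and none of the 6 was called. Wnt4 had 106 and 59.8 estimated counts in WT and 0 and 112 in the KO-labelled libraries, or 14.1 and 19.3 CPM in WT and 0 and 23.8 CPM with the KO label. The replicates labelled Msx2-KO thus stood on either side of WT with TMM scaling, though both were below it with library totals, and the log2 fold change was -0.50 (SE 2.27, edgeR adjusted p = 0.967). Leaving out Msx2-KO replicate 1 gave 0.50, and leaving out Msx2-KO replicate 2 gave -9.78. The latter rests on a lone KO-labelled library at 0 counts. Its size depends on the prior count, a small number that the fit adds. Wnt7b, a ligand that epidermal cells make, stood at 10.9 and 13.6 CPM in WT and 1.96 and 5.31 CPM in the KO-labelled libraries. The groups did not overlap, but the log2 fold change of -1.76 (SE 1.07, edgeR adjusted p = 0.546) did not pass. Wnt10a was at 4.94 and 11.6 CPM in WT and 5.01 and 10.4 CPM in the KO-labelled libraries, which overlapped, with a log2 fold change of -0.10 (SE 1.07, edgeR adjusted p = 0.984).

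Lower HFSC ligands came and went between single libraries. Wnt5a, the best known ligand of the arm without β-catenin, had 9 and 0 counts in WT and 51 and 0 in the KO-labelled libraries, with a log2 fold change of 2.10 (SE 2.59, edgeR adjusted p = 0.826) that ran from 1.09 to 6.97 when single libraries were left out. The 6.97 rests on WT replicate 2 alone, at 0 counts, and depends on the prior count. Wnt3 had 1 and 1 counts in WT and 0 and 49 in the KO-labelled libraries, and Wnt3a had 5 and 1 in WT and 0 and 39 with the KO label. In each of these 3 genes a single library labelled Msx2-KO carried nearly all the counts of its group, replicate 1 for Wnt5a and replicate 2 for Wnt3 and Wnt3a, and neither Wnt3 nor Wnt3a passed the filter. Wnt5b had 14 and 9 counts in WT and 0 and 0 in the KO-labelled libraries. With counts pooled over each group, the WT level was 10.1 times a floor of 3 counts over those libraries (8.65 from WT replicate 1 alone). That fold takes the WT counts as read and leaves out spread between replicates, so it is no firm minimum. The edgeR adjusted p of Wnt5b was 0.143. Wnt6, Wnt7a and Wnt11 had at most 15 counts in any HFSC library. In these bulk libraries fewer cells of a kind and less RNA per cell cannot be told apart, for this and every result that follows.

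In EpdSCs 6 of the 12 ligands lay higher in both KO-labelled libraries (all genes 27.8%) and 4 lower (all genes 44.5%), and none was called. Wnt5a was read at 214 and 236 in WT and 1648 and 1147 in the KO-labelled libraries. The groups stood well apart, with a log2 fold change of 2.60 (SE 0.50, limma adjusted p = 0.0601), and limma-trend gave an adjusted p of 0.0367 and a pseudocount of 10 one of 0.0427, both under the threshold. Over all alternatives of Wnt5a the adjusted p ran from 0.0111 to 0.393. Wnt7a had 27.1 and 24.7 in WT and 1675 and 243 in the KO-labelled libraries. Its replicates labelled Msx2-KO were both above WT and far from each other, and the log2 fold change was 4.58 (SE 1.11, limma adjusted p = 0.0835). Wnt10b had 138 and 128 in WT and 601 and 483 in the KO-labelled libraries, a log2 fold change of 2.01 (SE 0.47, limma adjusted p = 0.0806) with no overlap.

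The abundant EpdSC ligands Wnt3 and Wnt4 also stood higher without passing the test. Wnt3 had 1764 and 1539 in WT and 2953 and 3809 in the KO-labelled libraries, with a log2 fold change of 1.02 (SE 0.48, limma adjusted p = 0.210), and its groups overlapped once values were rescaled without mitochondrial and ribosomal RNA genes. Wnt4 had 1303 and 1468 in WT and 5458 and 2670.4 with the KO label, a log2 fold change of 1.46 (SE 0.59, limma adjusted p = 0.173) with no overlap. Wnt3a had 168 and 285 in WT and 877.4 and 518 in the KO-labelled libraries, and these did not overlap either. Wnt10a was level, at 832 and 1054 in WT and 1164 and 796 in the KO-labelled libraries, with a log2 fold change of 0.04 (SE 0.51, limma adjusted p = 0.959) whose sign turned under both rescalings. Wnt5b overlapped, at 40.1 and 41.7 in WT and 197 and 41.1 with the KO label.

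The ligands that stood lower in EpdSCs were Wnt6, Wnt7b, Wnt11 and Wnt16. Wnt7b had 959.7 and 863 in WT and 49.7 and 387 in the KO-labelled libraries, a log2 fold change of -2.70 (SE 1.16, limma adjusted p = 0.186). Wnt7b was below WT in both libraries, and far lower in replicate 1 than in replicate 2. Wnt6 had 139.7 and 88.2 in WT and 21.6 and 31.0 with the KO label, with a log2 fold change of -2.06 (SE 0.55, limma adjusted p = 0.0955). Wnt16 had 188 and 243 in WT and 43.3 and 74.1 in the KO-labelled libraries, a log2 fold change of -1.90 (SE 0.55, limma adjusted p = 0.108). Neither gene's groups overlapped. Wnt11 was low, at 27.1 and 55.01 in WT, 14.2 in Msx2-KO replicate 2 and listed at 0 in Msx2-KO replicate 1.

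Porcn, the acyltransferase that adds the lipid to Wnt ligands, and Wls, the carrier that brings them to the cell surface, serve all ligands. In HFSCs Wls stood at 53.9 and 49.8 CPM in WT and 19.8 and 32.7 CPM in the KO-labelled libraries, without overlap and with a log2 fold change of -0.98 (SE 0.39, edgeR adjusted p = 0.321). In EpdSCs it had 1712 and 2000.3 in WT and 5901 and 7952 in the KO-labelled libraries, also without overlap but on the other side of WT, with a log2 fold change of 1.89 (SE 0.49, limma adjusted p = 0.0925). Limma-trend gave Wls in EpdSCs an adjusted p of 0.0481, within a range of 0.0242 to 0.426 over its alternatives. Porcn was far lower, with 33 and 23 counts in WT HFSCs and 0 and 45 in the KO-labelled HFSC libraries, and a log2 fold change of -0.31 (SE 2.44, edgeR adjusted p = 0.980). Porcn in EpdSCs had 22.7 and 34.1 in WT and 87.9 and 36.4 in the KO-labelled libraries, with a log2 fold change of 1.00 (SE 0.68, limma adjusted p = 0.335) and groups that overlapped once values were rescaled without mitochondrial and ribosomal RNA genes.

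The secreted inhibitors included the most abundant members of HFSCs. Per kilobase, Dkk3, a divergent member of the Dickkopf family, led the 48 genes in WT HFSCs at 79.2 CPM per kilobase. It stood at 302 and 230.2 CPM in WT and 132 and 113 CPM in the KO-labelled libraries, without overlap and with a log2 fold change of -1.12 (SE 0.26, edgeR adjusted p = 0.143). Its percentile was 98.7 in WT HFSCs and 33.1 in WT EpdSCs. In EpdSCs Dkk3 had 73.7 and 121 in WT and 639 and 417 in the KO-labelled libraries, higher in both, with a log2 fold change of 2.44 (SE 0.57, limma adjusted p = 0.0804). Sfrp1, which binds Wnt ligands outside the cell, stood at 136 and 176 CPM in WT HFSCs and 289.7 and 250.3 CPM in the KO-labelled HFSC libraries. These groups did not overlap with TMM scaling and overlapped with library totals, under which the log2 fold change of 0.79 (SE 0.25, edgeR adjusted p = 0.221) came to -2.92e-05. In EpdSCs Sfrp1 had 445 and 901 in WT and 1323 and 1318 in the KO-labelled libraries, with a log2 fold change of 1.06 (SE 0.59, limma adjusted p = 0.260) and groups that overlapped under both rescalings.

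The other inhibitors were low. Wif1, a further secreted Wnt-binding protein, had 82 and 35 counts in WT HFSCs and 28 and 38 in the KO-labelled libraries. In CPM both of the latter lay below WT, at 3.05 and 8.07 against 10.9 and 11.3, but not by more than the spread the test allowed (edgeR adjusted p = 0.765). Notum, the enzyme that strips the lipid from Wnt ligands, had 5 and 1 counts in WT HFSCs and 49.99 and 0 in the KO-labelled libraries. Dkk2 had 1 count over all HFSC libraries and Sfrp2 had 3, and Sfrp2 in EpdSCs did not exceed 11.5 in any library.

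Of the 9 Frizzled receptors in HFSCs, which ranged in WT from scarce (Fzd10, Fzd4 and Fzd8) to abundant (Fzd7 and Fzd1), 4 stood below WT in both KO-labelled libraries, against 33.5% of all genes, with none called. Fzd3, on chromosome 14 from 65192449 to 65262463 of GRCm38, had 1138 and 463 counts in WT and 395 and 134 in the KO-labelled libraries, or 152 and 149.7 CPM in WT and 43.0 and 28.4 CPM with the KO label. The WT libraries were nearly equal and both others far lower, with a log2 fold change of -2.07 (SE 0.31, edgeR adjusted p = 0.143), the lowest unadjusted p of the members. Fzd3 passed the threshold with DESeq2 (adjusted p = 0.00142) and limma-trend (adjusted p = 0.0327), and its adjusted p ran from 0.00142 to 0.212 over the alternatives. With the replicate block in edgeR it also passed (adjusted p = 0.0143). Fzd5 stood at 31.6 and 40.6 CPM in WT and 7.52 and 9.98 CPM in the KO-labelled libraries, without overlap and with a log2 fold change of -2.05 (SE 0.49, edgeR adjusted p = 0.143). Fzd7, the Frizzled gene with the highest level per kilobase in WT HFSCs, stood at 247 and 235 CPM in WT and 179 and 124 CPM in the KO-labelled libraries, a log2 fold change of -0.67 (SE 0.28, edgeR adjusted p = 0.337). Fzd2 was the remaining receptor below WT in both, at 117 and 88.4 CPM in WT and 80.6 and 23.8 CPM with the KO label.

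The other HFSC Frizzled genes overlapped or stood higher. Fzd1 had 78.9 and 172 CPM in WT and 134 and 105 CPM in the KO-labelled libraries, with a log2 fold change of -0.07 (SE 0.45, edgeR adjusted p = 0.976) whose sign differed between settings. Fzd6 had 50.3 and 48.8 CPM in WT and 119 and 48.0 CPM in the KO-labelled libraries, a log2 fold change of 0.75 (SE 0.51, edgeR adjusted p = 0.598) that came to -0.0510 with library totals. Only Msx2-KO replicate 1 stood above WT there, and without it the log2 fold change of Fzd6 was -0.0730. Fzd10 had 8 and 0 counts in WT and 81 and 15 in the KO-labelled libraries, higher in both, with a log2 fold change of 3.36 (SE 1.96, edgeR adjusted p = 0.525) that ran from 2.37 to 8.09 when single libraries were left out. The 8.09 rests on WT replicate 2 alone, at 0 counts, and depends on the prior count. Fzd8 had 48 and 21 counts in WT and 0 and 64 with the KO label, and Fzd4 had 55 and 10 in WT and 146 and 34 with the KO label, each with overlapping CPM.

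In EpdSCs 8 Frizzled genes were measured, of which 4 stood below WT in both KO-labelled libraries (all genes 44.5%) and 1 above (all genes 27.8%). Fzd3 had 223 and 272 in WT and 10.2 and 37.7 in the KO-labelled libraries. As in HFSCs its groups did not overlap and the KO-labelled libraries were lower, with a log2 fold change of -3.57 (SE 0.80, limma adjusted p = 0.0751), and a pseudocount of 10 gave an adjusted p of 0.0469 in a range of 0.00954 to 0.4498 over the alternatives. Fzd8 had 153 and 188 in WT and 24.2 and 39.8 in the KO-labelled libraries, with a log2 fold change of -2.41 (SE 0.53, limma adjusted p = 0.0738). Fzd7 had 468 and 513 in WT and 132 and 133 with the KO label, with a log2 fold change of -1.87 (SE 0.46, limma adjusted p = 0.0857), and neither gene's groups overlapped. Fzd10, the most abundant Frizzled gene of WT EpdSCs at 414 per kilobase, had 1329 and 1364 in WT and 655 and 714 in the KO-labelled libraries. Both of the latter were lower, with a log2 fold change of -0.98 (SE 0.46, limma adjusted p = 0.210). Fzd10 stood at percentile 92.5 in WT EpdSCs and 4.85 in WT HFSCs.

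Fzd6 was the EpdSC Frizzled gene above WT in both KO-labelled libraries, at 1507 and 1627 in WT and 2318 and 3079 in the others. Its log2 fold change was 0.77 (SE 0.48, limma adjusted p = 0.304), and its groups overlapped under both rescalings. Fzd1 had 279 and 301 in WT and 89.1 and 378 in the KO-labelled libraries, with a log2 fold change of -0.65 (SE 0.88, limma adjusted p = 0.606) that was 0.38 without Msx2-KO replicate 1. Fzd2, at 94.2 and 93.0 in WT and 413 and 84.9 with the KO label, and Fzd5, at 243 and 131 in WT and 299 and 111 with the KO label, overlapped as well.

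**Figure D3:**
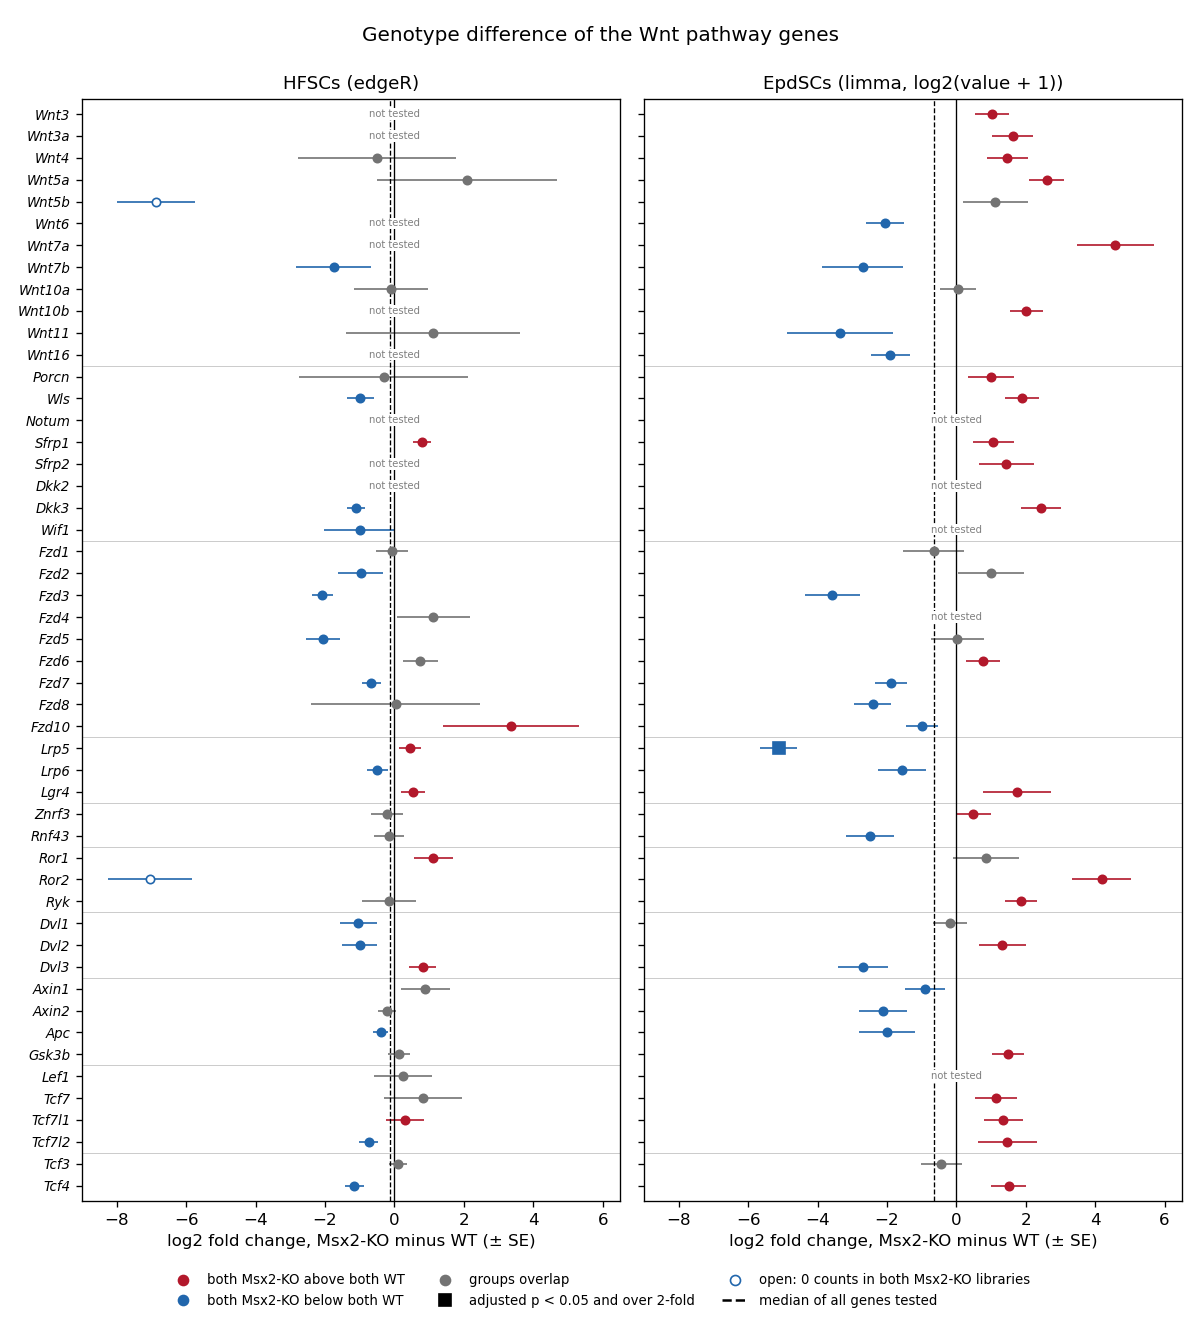
Log2 fold change of each Wnt pathway gene, Msx2-KO minus WT, with its SE, in HFSCs (left, edgeR with TMM scaling) and EpdSCs (right, limma on log2(value + 1)). Lrp5 in EpdSCs, at -5.12, is the 1 gene past the threshold, and the fitted values of Wnt5b and Ror2 in HFSCs, drawn open, depend on the prior count because both KO-labelled libraries had 0 counts. With library totals the HFSC groups of Sfrp1, Lrp5, Ror1, Dvl3 and Tcf7l1 overlapped and those of Lgr4 changed sides.

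Lrp5 and Lrp6 are the co-receptors that pass the signal of a bound Frizzled to the destruction complex. Lrp5, on chromosome 19 from 3584828 to 3686564 of GRCm38, was read at 1969 and 2353 in WT EpdSCs against 48.4 and 76.8 in the KO-labelled EpdSC libraries. Both KO-labelled libraries lay far below both WT libraries. It fell by 5.12 on the log2 scale (SE 0.52, limma adjusted p = 0.0268), and the ratio of the WT mean to the mean of the KO-labelled libraries was 34.5. Its adjusted p was 0.296 without WT replicate 1 and 0.288 without WT replicate 2, with log2 fold changes of -5.25 and -4.99, and it stayed between 0.00879 and 0.0403 under every other alternative. In HFSCs Lrp5 was measured at 66.5 and 72.4 CPM in WT and 74.2 and 115 CPM in the KO-labelled libraries. There the latter were slightly higher with TMM scaling, overlapped with library totals and did not pass the test (edgeR adjusted p = 0.617).

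Lrp6 was below WT in both cell types without passing the test. In EpdSCs it had 1746 and 1979 in WT and 1025 and 388 in the KO-labelled libraries (limma adjusted p = 0.193), and in HFSCs 207 and 229 CPM in WT and 188 and 121 CPM with the KO label (edgeR adjusted p = 0.552). Per kilobase, Lrp5 and Lrp6 were at 221.9 and 136 in WT EpdSCs and at 6.43 and 51.7 in the KO-labelled EpdSC libraries, so the order of the co-receptors differed between the groups, in each library. In HFSCs Lrp6 was the more abundant one in both WT libraries and in Msx2-KO replicate 1. In Msx2-KO replicate 2 the order turned, with Lrp5 at 11.9 and Lrp6 at 8.85 CPM per kilobase.

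Lgr4, a receptor for R-spondins, which strengthen Wnt signals, stood at 95.6 and 167 CPM in WT HFSCs and 186 and 195 CPM in the KO-labelled HFSC libraries. The log2 fold change was 0.54 (SE 0.35, edgeR adjusted p = 0.575) with TMM scaling and -0.21 with library totals. In EpdSCs Lgr4 had 486 and 582 in WT and 4086 and 778 in the KO-labelled libraries, higher in both but mainly in replicate 1, with a log2 fold change of 1.74 (SE 0.98, limma adjusted p = 0.267). Without Msx2-KO replicate 1 that log2 fold change was 0.55.

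Znrf3 and Rnf43 are ubiquitin ligases that remove Frizzled receptors from the cell surface, and Rnf43 is also a known Wnt target. Rnf43 had 1157 and 1060.4 in WT EpdSCs and 118 and 326 in the KO-labelled EpdSC libraries, lower in both, with a log2 fold change of -2.49 (SE 0.70, limma adjusted p = 0.103). In HFSCs it overlapped, at 37.8 and 24.2 CPM in WT and 30.5 and 24.8 CPM in the KO-labelled libraries. Znrf3 overlapped in HFSCs too, at 22.4 and 38.8 CPM in WT and 27.99 and 24.4 CPM with the KO label. In EpdSCs Znrf3 had 986 and 1010.1 in WT and 1729 and 1135 in the KO-labelled libraries, above WT as deposited and overlapping once values were rescaled without mitochondrial and ribosomal RNA genes.

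Ror1, Ror2 and Ryk are receptors tied to the arm without β-catenin, and Ror2 binds Wnt5a. Ror2 was scarce, with 25 and 6 counts in WT HFSCs and 0 and 0 in the KO-labelled HFSC libraries. With counts pooled over each group, the WT level was 13.6 times a floor of 3 counts over those libraries. It was 12.2 times that floor from the mean of the WT libraries and 8.98 times from WT replicate 2 alone. These folds take the WT counts as read and are no firm minimum. The edgeR adjusted p of Ror2 was 0.143. In EpdSCs the order was the other way, with 0 and 2.85 for WT against 31.8 and 37.7 for the KO-labelled libraries and a log2 fold change of 4.18 (SE 0.84, limma adjusted p = 0.0643). That value depends on the pseudocount, from 1.98 with 10 to 6.00 with 0.1. The WT values there amounted to 0 and 3 counts, going by the commonest low value of each library. Ryk had 1069 and 926 in WT EpdSCs and 3569 and 3645 in the KO-labelled EpdSC libraries, close within each group and far apart between them, with a log2 fold change of 1.86 (SE 0.46, limma adjusted p = 0.0877). Limma-trend gave Ryk an adjusted p of 0.0412, in a range of 0.0205 to 0.401 over its alternatives. In HFSCs Ryk overlapped, at 40.4 and 48.8 CPM in WT and 65.6 and 14.6 CPM in the KO-labelled libraries. Ror1 stood at 12.8 and 10.7 CPM in WT HFSCs and 31.8 and 19.3 CPM in the others, above WT with TMM scaling and overlapping with library totals, and it overlapped in EpdSCs, at 139 and 281 in WT and 726 and 176 with the KO label.

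The 3 Dishevelled genes, whose proteins carry the signal from Frizzled into the cell, differed among themselves. In EpdSCs Dvl3 had 819 and 803 in WT and 72.6 and 213 in the KO-labelled libraries, lower in both, with a log2 fold change of -2.69 (SE 0.72, limma adjusted p = 0.0965). Dvl2 was higher in both, at 253 and 299.7 in WT and 1101 and 430.1 in the KO-labelled libraries, and Dvl1 overlapped, at 890.3 and 892 in WT and 927 and 673 with the KO label. Neither Dvl1 nor Dvl2 had an unadjusted p under 0.05. In HFSCs Dvl1 and Dvl2 stood below WT, at 15.03 and 34.8 CPM against 44.1 and 58.5 CPM and at 17.3 and 11.04 CPM against 28.5 and 28.5 CPM. Dvl3 stood above WT there with TMM scaling, at 35.8 and 53.7 CPM against 27.9 and 23.0 CPM, and overlapped with library totals.

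The destruction complex holds Axin2, whose gene is a known target of the β-catenin arm in many tissues and feeds back on it. In WT EpdSCs Axin2 had the highest value per kilobase of the 45 members, 558. Its values were 2908 and 3241 in WT and 427 and 1173 in the KO-labelled EpdSC libraries, lower in both, with a log2 fold change of -2.12 (SE 0.70, limma adjusted p = 0.130). In HFSCs Axin2 overlapped, at 74.5 and 62.7 CPM in WT and 55.01 and 62.8 CPM in the KO-labelled libraries, with a log2 fold change of -0.22 (SE 0.26, edgeR adjusted p = 0.810) and values of -0.43 to -0.11 when single libraries were left out. With library totals it stood below WT in both KO-labelled libraries, at a log2 fold change of -1.12. Exons of Axin2 overlap an antisense gene, Gm11670. Most other known target genes did not follow Axin2 in EpdSCs. Of 6 tested there from the further list below, 4 stood above WT in both KO-labelled libraries (all genes 27.8%), namely Ascl2, Myc, Ccnd1 and Cd44. Jag1 stood below (all genes 44.5%), Tnfrsf19 overlapped, and 0 of the 6 were called.

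Gsk3b, the kinase of the complex, went the other way in EpdSCs. It had 2033 and 2038 in WT and 6249.8 and 5244 in the KO-labelled libraries, with no overlap and a log2 fold change of 1.49 (SE 0.47, limma adjusted p = 0.120). Apc and Axin1 stood below WT in EpdSCs, at 1051 and 298 against 2100.2 and 2366 and at 657 and 353 against 834 and 968, both with an unadjusted p over 0.05. In HFSCs Apc was at 158 and 156 CPM in WT and 126 and 112 CPM in the KO-labelled libraries, a small difference without overlap (edgeR adjusted p = 0.479). Gsk3b, at 86.6 and 85.7 CPM in WT and 72.1 and 115 CPM with the KO label, and Axin1, at 32.8 and 36.5 CPM in WT and 102 and 26.5 CPM with the KO label, overlapped there.

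The TCF/LEF factors take β-catenin to DNA. In HFSCs Tcf7l2 was the most abundant of the 4, and it stood at 95.7 and 137 CPM in WT and 69.3 and 69.4 CPM in the KO-labelled libraries. The groups did not overlap, and the log2 fold change was -0.74 (SE 0.28, edgeR adjusted p = 0.290). Tcf7l1, known as a repressor kept on in bulge stem cells, had 15.6 and 14.5 CPM in WT and 21.6 and 15.7 CPM in the KO-labelled libraries. These differed by little, with a log2 fold change of 0.31 (SE 0.56, edgeR adjusted p = 0.898), and overlapped with library totals. Lef1, known from the hair germ and matrix, had 60.7 and 28 counts in WT and 104 and 42 in the KO-labelled libraries, or 8.10 and 9.05 CPM in WT and 11.3 and 8.91 CPM with the KO label, and overlapped with a log2 fold change of 0.24 (SE 0.84, edgeR adjusted p = 0.954). Tcf7 had 44 and 20 counts in WT and 163 and 19 in the KO-labelled libraries, with a log2 fold change of 0.82 (SE 1.13, edgeR adjusted p = 0.852) that was -0.63 without Msx2-KO replicate 1.

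In EpdSCs the 3 TCF genes measured all stood above WT in both KO-labelled libraries, as did 27.8% of all genes, and none had an unadjusted p under 0.05. Tcf7 had 189.6 and 119 in WT and 248 and 443 in the KO-labelled libraries, with a log2 fold change of 1.14 (SE 0.60, limma adjusted p = 0.243) and overlap under both rescalings. Tcf7l1 had 39.0 and 19.9 in WT and 70.0 and 76.2 with the KO label, with a log2 fold change of 1.36 (SE 0.57, limma adjusted p = 0.182) and overlap once values were rescaled without mitochondrial and ribosomal RNA genes. Tcf7l2 had 291 and 414 in WT and 1850.2 and 499 in the KO-labelled libraries, with a log2 fold change of 1.47 (SE 0.84, limma adjusted p = 0.273). Only Msx2-KO replicate 1 was far above WT, and without it the log2 fold change of Tcf7l2 was 0.52.

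Tcf3 and Tcf4 are on the list by symbol, but these symbols name E proteins, basic helix-loop-helix factors outside the TCF/LEF family, and are kept apart here. Tcf4 stood at 117 and 118 CPM in WT HFSCs and 60.6 and 45.2 CPM in the KO-labelled HFSC libraries, lower in both, with a log2 fold change of -1.15 (SE 0.26, edgeR adjusted p = 0.143). In EpdSCs it had 533 and 751 in WT and 2011 and 1601 in the KO-labelled libraries, higher in both, with a log2 fold change of 1.502 (SE 0.51, limma adjusted p = 0.133). Tcf3 overlapped in HFSCs, at 50.5 and 59.2 CPM in WT and 54.8 and 62.8 CPM with the KO label, and in EpdSCs, at 1197 and 1249 in WT and 1277 and 642 with the KO label. Without these 2 genes the median log2 fold change of the members was -0.17 in HFSCs and 0.85 in EpdSCs.

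A further list of 80 pathway genes, written from general knowledge, was read in the same way. In HFSCs 54 of the 80 were tested and 0 were called, with an unadjusted p under 0.05 in 5 higher and 7 lower genes, where all genes gave 5.3% and 12.8%, and a median log2 fold change of -0.16. The 5 with the smallest p were Tle3, a corepressor of TCF factors, Celsr2 and Prickle2 of the planar polarity arm, the ligand Wnt2b and the Notch ligand Jag1. Tle3 stood at 33.1 and 31.4 CPM in WT and 126 and 109 CPM in the KO-labelled libraries, a log2 fold change of 1.87 (SE 0.24, edgeR adjusted p = 0.143) without overlap. Celsr2 stood higher as well with TMM scaling, at 63.5 and 80.2 CPM in WT and 169 and 153 CPM with the KO label. Prickle2, at 180.2 and 169 CPM in WT and 70.3 and 93.8 CPM with the KO label, and Jag1, at 259 and 289 CPM in WT and 148 and 124 CPM with the KO label, were lower in both KO-labelled libraries, and Wnt2b was at 2.54 and 3.56 CPM and at 0 in both. All 5 had an edgeR adjusted p of 0.143. Tle3 passed the threshold with DESeq2 (adjusted p = 0.00419), limma-trend (adjusted p = 0.0327) and the replicate block in edgeR (adjusted p = 0.0413). Wnt2b passed with limma-trend (adjusted p = 0.0327) and not with the block, and DESeq2 gave it no adjusted p. With library totals the log2 fold change of Tle3 came to 1.02 (edgeR adjusted p = 0.453), and over all alternatives its adjusted p ran from 0.00323 to 0.798. Under the same totals Celsr2 overlapped, at a log2 fold change of 0.37.

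In EpdSCs 56 of these 80 genes were tested, 1 was called higher and 2 were called lower, against 1.57% and 7.78% of all genes. The gene called higher was Ctbp1, a corepressor, which had 1356 and 1353 in WT and 24422 and 17752 in the KO-labelled libraries, a log2 fold change of 3.94 (SE 0.49, limma adjusted p = 0.0311). Those called lower were Daam2, a formin of the Dishevelled arm, and Wnt2b. Daam2 had 39.0 and 26.6 in WT and 1.27 and 1.35 in the KO-labelled libraries, with a log2 fold change of -3.84 (SE 0.50, limma adjusted p = 0.0330), and Wnt2b had 45.5 and 72.1 in WT and 0 and 2.02 with the KO label, with a log2 fold change of -5.07 (SE 0.77, limma adjusted p = 0.0432). Values that low make the fold depend on the pseudocount, from -1.90 with 10 to -4.52 with 0.1 for Daam2 and from -2.62 to -6.96 for Wnt2b. The groups of all 3 were apart, and all 3 missed the threshold without either WT library, where limma called no gene at all. With the replicate block Ctbp1 (adjusted p = 0.0536) and Daam2 (adjusted p = 0.0559) also missed it, as did Daam2 with a pseudocount of 10 (adjusted p = 0.0560). Wnt2b missed it with a pseudocount of 0.1 (adjusted p = 0.123), with equal totals (adjusted p = 0.0556) and with mitochondrial and ribosomal RNA genes left out (adjusted p = 0.0501). Prickle1, at 368 and 466 in WT and 2432 and 2457 in the KO-labelled libraries (limma adjusted p = 0.0573), and Bcl9l, a β-catenin cofactor, at 4689 and 4888 in WT and 446 and 882 with the KO label (limma adjusted p = 0.0630), did not pass, though both did with limma-trend (adjusted p = 0.0365 and 0.0373) and with a pseudocount of 10 (adjusted p = 0.0415 and 0.0436). The list's median log2 fold change in EpdSCs was -0.01.

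Markers of other cells moved with the labels in HFSCs, beside all the HFSC results above. The gene said to lead a list has its highest mean over the 4 libraries, and single libraries can have another. The 7 sebaceous gland genes summed to 71.3 and 90.8 CPM in WT and 1353 and 1059 CPM in the KO-labelled libraries, led by Scd1, with Cidea at 0 in WT. The 8 suprabasal genes summed to 192 and 217 CPM in WT and 812 and 3153 CPM with the KO label, led by Krt10, with Lor at 0 in WT and in Msx2-KO replicate 1. Sbsn, which led the list in WT, overlapped, at 112 and 169.7 CPM in WT and 61.9 and 156 CPM with the KO label. The 5 cycling genes summed to 42.4 and 50.8 CPM in WT and 518 and 371 CPM in the KO-labelled libraries, led by Mki67, and Cdk1 alone of them overlapped. These 3 sums and the scarce muscle sum were higher in both KO-labelled libraries, and the sums of the HFSC, EpdSC, melanocyte, fibroblast and dermal papilla lists were lower in both. Of the HFSC list 9 of 10 genes stood below WT and Tcf7l1 above. Of the EpdSC list 3 of 6 stood below, Krt5 among them, while Krt14 (639 and 668 CPM in WT and 859 and 737 CPM with the KO label) and Ly6d (2.40 and 0.970 CPM in WT and 52.4 and 89.8 CPM with the KO label) stood above. The 10 HFSC genes, of which Tcf7l1 is also a Wnt pathway gene, summed to 9480.2 and 8905 CPM in WT and 4574 and 4910.2 CPM in the others, led by Krt15, and the 6 melanocyte genes with a row summed to 195 and 218.8 CPM in WT and 91.3 and 52.6 CPM with the KO label, led by Mitf, with Tyrp1, Pmel and Kit at 0 in both KO-labelled libraries. Dct, at 10.5 and 20.4 CPM in WT and 48.8 and 14.4 CPM with the KO label, and Tyr overlapped. The 6 EpdSC genes with a row summed to 3846 and 4099.8 CPM in WT and 3229 and 2948 CPM with the KO label, led by Krt5, and the 4 hair germ genes, Lef1 and Msx2 among them, to 129 and 126 CPM in WT and 108 and 134 CPM with the KO label, led by Cdh3. Fibroblast, dermal papilla, immune, endothelial and muscle genes were scarce. The fibroblast list, with 4 of 8 genes and led by Col1a2, summed to 50.9 and 65.0 CPM in WT and 28.2 and 14.2 CPM in the KO-labelled libraries, where Pdgfra was at 0. The muscle list, with 3 of 4 genes and led by Acta1, summed to 1.58 and 0.970 CPM in WT and 32.2 and 7.004 CPM with the KO label, with Myh4 and Ckm at 0 in the KO-labelled libraries. For the immune list, with 7 of 9 genes and led by Cd74, sums were 12.7 and 5.495 CPM in WT and 20.2 and 10.4 CPM with the KO label, with Ptprc, Cd3g, Trdc, H2-Aa, H2-Ab1 and Lyz2 at 0 in the KO-labelled libraries and Trdc also in WT. The endothelial list gave 11.3 and 5.55 CPM in WT and 6.10 and 4.03 CPM with the KO label over 5 of 6 genes, led by Pecam1 and with Rgs5 and Des at 0 in the KO-labelled libraries, and the dermal papilla list 9.48 and 9.70 CPM in WT and 0 and 5.94 CPM with the KO label over 3 of 6, led by Hhip and with Alx4 and Crabp1 at 0 in the same libraries. The part of any of these in the Wnt pathway values was not tested.

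Marker sums also moved in EpdSCs. The 8 suprabasal genes, led by Krt10, summed to 299839 and 216564 in WT and 107407 and 82075 in the KO-labelled libraries. The 7 EpdSC genes, led by Krt14, summed to 197891 and 230674 in WT and 1068080 and 521544 with the KO label, and 8 of the 10 HFSC genes, led by Krt15, to 89957 and 108420 in WT and 310928 and 221159 with the KO label. The sums of these 2 lists were higher and the suprabasal sum lower in both KO-labelled libraries, but not every gene followed its sum. Krtdap, Lor and Dsg1a of the suprabasal list were above WT in Msx2-KO replicate 1 and below it in replicate 2, and Trp63, Sox9, Lhx2 and Nfatc1 overlapped. The immune list, with 8 of 9 genes and led by Cd74, summed to 1031 and 107 in WT and 2.55 and 8.09 in the KO-labelled libraries, where Ptprc, Cd3e, Trdc and Cd207 were at 0. The sebaceous list, with 4 of 7 genes and led by Scd1, summed to 6579 and 7145 in WT and 25390.3 and 10941 with the KO label, with Soat1 at 0 in the KO-labelled libraries. Both of its sums labelled Msx2-KO lay above WT, as did Scd1 and Mgst1, while Fasn lay below, at 2926 and 2632 in WT and 1571 and 768 with the KO label. The 3 hair germ genes with a row, led by Hopx, gave 1826 and 2545 in WT and 8722 and 4582 in the KO-labelled libraries, and the 5 cycling genes 3459 and 2797 in WT and 4739.5 and 2168 with the KO label. Within the cycling list Mki67 led in WT and stood lower with the KO label (2517 and 2055 in WT and 7.64 and 294 with the KO label), while Ccnb1 (84.8 and 81.6 in WT and 2521 and 570.1 with the KO label) and Cdk1 (53.1 and 56.9 in WT and 1455 and 655 with the KO label, limma adjusted p = 0.0416) stood higher. Postn of the HFSC list was also called higher, at 457 and 488 in WT and 10771 and 8326 with the KO label (limma adjusted p = 0.0281). Sbsn (limma adjusted p = 0.0388) and Ivl (limma adjusted p = 0.0368) of the suprabasal list were called lower. Endothelial genes, 2 of 6 and led by Acta2, gave 33.6 and 27.5 in WT and 152 and 34.4 in the KO-labelled libraries. Single genes stood for 3 lists, Rspo3 for dermal papilla at 275 and 285 in WT and 40.7 and 512 with the KO label, Mitf for melanocytes at 112 and 175 in WT and 24.2 and 238 with the KO label and Mylpf for muscle at 9.75 and 15.2 in WT and 15.3 and 8.76 with the KO label, and the groups of each overlapped. The 8 fibroblast genes were not analysed in EpdSCs. The part of these markers in the Wnt pathway values was not tested here either.

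The library kit marks strand, and whether the counting used it was not given in the sources used here. Exons of 12 of the 50 genes overlap a gene on the other strand in GENCODE M21, namely Wnt5a, Wnt7b, Wnt11, Notum, Sfrp2, Fzd5, Fzd6, Dvl1, Dvl2, Axin2, Lef1 and Tcf7l1. If strand was not used, reads of these genes and of their partners cannot be told apart, and their values are uncertain to that extent.

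Because TCF/LEF factors bind a short core motif, the promoters of the members were searched for it, as CTTTGAA or CTTTGAT on either strand. RefSeq promoters of GRCm38.p6, from 250 bases before to 50 bases after a transcript's start, were at hand for 33 of the 50 genes. The motif was in 2 of the 33 (6.06%), against 9.88% of the 27025 genes with a promoter, and in 5 of 58 genes of the further list (8.62%). Axin2 and Rnf43 had a promoter without a match, which says only that these letters are not in that window. The matches were in the ligand genes Wnt5b and Wnt11, and both are shown with their flanks, motif in capitals, since Wnt5b is among the HFSC genes with the smallest unadjusted p. Each stretch reads in the direction of its gene and lies before the transcript's start, for Wnt5b on the minus strand at chr6:119449436-119449472 and for Wnt11 on the plus strand at chr7:98835046-98835082, where the capitals are the motif of the other strand.
Wnt5b: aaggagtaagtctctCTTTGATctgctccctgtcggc
Wnt11: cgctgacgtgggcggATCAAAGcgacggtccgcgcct
The Wnt5b start used here is an internal one, since the GENCODE gene on the minus strand begins at 119544347. The Wnt11 window spans the start of its gene, at 98835112. A match describes the letters and not a bound site.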

How the data were processed

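Sorted HFSCs and EpdSCs, 2 libraries for each genotype, were measured by stranded total RNA-seq, and groups were taken from the labels. The authors aligned reads to GRCm38/mm10 with STAR 2.7.3a and counted them on GENCODE genes in Partek. For HFSCs the deposited unit was the estimated count per gene, without normalization. For EpdSCs the authors deposited a normalized signal, whose low values fit estimated counts divided by 1 factor per library. How that factor was made, and any filter on genes, were not given in the sources used here. The authors' own comparisons (fold changes, p-values and FDR values) were not used. Columns of values that could not be mapped to a library numbered 0.

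For HFSCs the estimated count was rounded to a whole number, TMM gave the scaling, and the test was the quasi-likelihood test of edgeR 4.0.16 after filterByExpr, in R 4.3.3. For EpdSCs, where no counts were at hand, limma 3.58.1 was fitted to log2(value + 1) with a prior spread common to all genes. A call needed an adjusted p (Benjamini-Hochberg, over all genes tested) under 0.05 together with a change of over 2-fold either way. The SE in HFSCs is the absolute log2 fold change over the root of F. An exact permutation of 2 libraries against 2 reaches a p of 0.333 at the lowest, so the tests borrow spread across genes. Exon lengths and overlaps came from GENCODE M21.

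Fold changes with errors are given for 19 anchor genes, for further members with an unadjusted p under 0.05 or a call in that cell type, and for at most 5 genes of the further pathway list per cell type. Other genes are given by value. The members and lists were chosen with earlier results of these data known. The alternatives were DESeq2 1.42.0, limma-trend, RLE factors, library totals, a fit with no mitochondrial or ribosomal RNA genes, other count minimums and pseudocounts, no fold limit, a replicate block, and each library left out in turn. Figures were drawn with matplotlib 3.10.9.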

Additional observations from a re-analysis of the deposited data

Results flagged for a closer look

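Of the 38 members tested in both cell types, 9 stood apart from WT without overlap in opposite directions (23.7%) and 8 in the same direction (21.1%). Of all 13151 genes tested in both, 16.5% and 21.0% did so. In the values that follow, the log2 fold change in HFSCs comes before that in EpdSCs. Lower in KO-labelled HFSCs and higher in KO-labelled EpdSCs were Dkk3 (-1.12 and 2.44), Dvl2 (-1.004 and 1.32), Tcf4 (-1.15 and 1.502), Tcf7l2 (-0.74 and 1.47), Wls (-0.98 and 1.89) and Ror2 (-7.03 and 4.18). The HFSC value of Ror2 is a fitted one that depends on the prior count, since both KO-labelled HFSC libraries had 0 counts, and its EpdSC value depends on the pseudocount. Higher in HFSCs and lower in EpdSCs were Dvl3 (0.81 and -2.69), Fzd10 (3.36 and -0.98) and Lrp5 (0.45 and -5.12), and the HFSC groups of Dvl3 and Lrp5 overlapped with library totals. The HFSC value of Fzd10 rests on 8 and 0 counts in WT and ran from 2.37 to 8.09 when single libraries were left out. The 8.09 also depends on the prior count, with a lone WT library at 0 counts. The difference between cell types was not tested for any of them.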

How the results depend on the processing

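The sign of the log2 fold change held in every setting for 18 of 28 named genes in HFSCs and 34 of 36 in EpdSCs. Of the values of named genes under the alternatives, 298 kept sign and call in HFSCs, 35 gained a call and 17 turned sign. In EpdSCs 365 kept both, 48 gained a call, 14 lost one and 5 turned sign. The 298 HFSC values include Wnt5b, Ror2 and Wnt2b with DESeq2, which gave them no adjusted p, so that only their sign was compared. Most gains came from fits that left out a KO-labelled library, in which the lone library is assumed to vary like the other group. The cause of these differences was not tested. With 2 libraries in each group, a low p rests on spread borrowed from other genes.

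In HFSCs DESeq2 called 323 genes higher, 351 lower and 1 member, limma-trend 158, 1249 and 3. Library totals gave 16 genes higher, 35 lower, 11 members with an unadjusted p under 0.05 and 6 above 0, and a minimum of 10 counts in every library gave 2 genes higher. In EpdSCs a pseudocount of 0.1 gave 162 genes higher, a pseudocount of 10 gave 619 higher and 1354 lower with 3 members called (12.2% of genes and 6.67% of members), and limma-trend gave 684 higher and 1448 lower with 4 members called (13.1% and 8.89%). With single libraries left out, HFSC genes called higher ran from 90 to 2711, genes called lower from 35 to 6561, members called from 0 to 19 and members with an unadjusted p under 0.05 from 1 to 23. The same ranges in EpdSCs were 0 to 3745, 0 to 6631, 0 to 28 and 2 to 33.

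Signs turned in HFSCs with library totals for 11 members. Among them were Sfrp1 (-2.92e-05), Fzd6 (-0.0510), Lgr4 (-0.21), Lef1 (-0.58) and Tcf7l1 (-0.54). The others were Wnt11 (-0.14), Fzd8 (-0.95), Lrp5 (-0.42), Dvl3 (-0.10), Gsk3b (-0.77) and Tcf3 (-0.73). Fzd1, at -0.07 in HFSCs, came to 0.0233 with limma-trend and 0.0179 with 10 counts in every library. With single libraries left out, HFSC values ran from -9.78 to 0.50 for Wnt4, -0.68 to 0.56 for Wnt10a, -8.26 to 0.71 for Porcn, -0.55 to 0.50 for Fzd1, -0.0730 to 1.25 for Fzd6 and -0.63 to 1.53 for Tcf7. The lower ends for Wnt4 and Porcn rest on a lone KO-labelled library at 0 counts and depend on the prior count. In EpdSCs Wnt10a came to -0.23 with library totals and -0.50 without mitochondrial and ribosomal RNA genes, and the ranges with single libraries left out were -0.23 to 0.31 for Wnt10a and -1.69 to 0.38 for Fzd1. Wide ranges that kept their sign included 1.09 to 6.97 for Wnt5a and 2.37 to 8.09 for Fzd10 in HFSCs. The upper ends of both rest on WT replicate 2 alone, at 0 counts, and depend on the prior count. In EpdSCs such ranges included 3.19 to 5.96 for Wnt7a, -4.17 to -1.23 for Wnt7b and 0.55 to 2.94 for Lgr4. Porcn there ran from 0.37 to 1.62 and Sfrp1 from 0.55 to 1.57.

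The labels number the replicates, so a replicate block was tried. In HFSCs the replicate block gave 145 genes higher, 86 lower, 1 member called and a log2 fold change of 0.0256 for Fzd1, and in EpdSCs 10 members with an unadjusted p under 0.05. It called Fzd3 and Tle3 in HFSCs and ended the calls of Ctbp1 and Daam2 in EpdSCs, and it changed the call of no other named gene. Across genes, replicate 1 minus replicate 2 in WT was correlated with the same difference in the KO-labelled libraries. The correlation was -0.0557 in HFSCs and -0.0225 in EpdSCs, over 2 pairs of libraries each.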
